A study of Mus musculus with 12 samples.

Results

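Genes of the T cell receptor complex and of lymphocytes were followed through 12 Affymetrix whole-transcript arrays of sorted mouse dorsal skin cells. The set was named from genes of epidermal T cells together with Thy1, and its members were the probe sets whose only gene symbol is Cd3g, Cd3d, Cd3e, Cd247, Cd7, Cd2, Lck, Nkg7 or Thy1. Of these 9 genes, 8 were measured, each by 1 probe set, among 19938 gene symbols in the whole table, and Lck was not analysed here. The 7 T cell members had been picked with the comparison of bulge cells in view and Thy1 with the comparison of epidermis in view, so those values are given below as a description, and tests are given on the comparison that did not choose the gene.

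The arrays fall into 4 groups of 3. Clock-positive bulge cells were hair follicle stem cells sorted as alpha6 bright, CD34+ and bright for Venus from Per1-Venus mice of postnatal day 18 to 19, in which a fluorescent protein reports the clock gene Per1. Clock-negative bulge cells came from the same kind of mouse and gate and were dim for Venus, as the titles and the series design give it, although their source label also names the Venus-high gate. About 20 mice were pooled in each bulge sample. The other groups were basal interfollicular epidermis cells from mice 1 year old, either Bmal1 epidermal knockout (KO) or wild type (WT), with 5 mice per sample. Per1-Venus is not named for the epidermis mice, and the Cre driver and the sort markers of the epidermis cells are not given in the sources used here.

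Mouse epidermis holds its own T cells, the dendritic epidermal T cells, which lie between keratinocytes and carry a gamma-delta T cell receptor. At the surface of any T cell the receptor is held in a complex with the CD3 gamma, delta and epsilon chains and the CD247 zeta chain, whose cytoplasmic tails are phosphorylated by kinases such as LCK and then bind ZAP70. Epidermal T cells sense keratinocyte damage, and SKINT1, of the butyrophilin-like SKINT proteins of keratinocytes, is known to shape their development. In bulk samples such as these, fewer cells of a type and less RNA per cell cannot be told apart.

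The CD3 chain genes lie side by side on mouse chromosome 9 (build GRCm38.p6), with Cd3g at chr9:44969572-44980431, Cd3d at chr9:44981769-44987052 and Cd3e at chr9:44998735-45009663. The transcript starts of Cd3g and Cd3d used for the windows below face away from each other and lie 1355 bases apart. For Cd3d and Cd3e these starts lie slightly inside the gene spans just given. The promoter windows of these genes are shown as a description of the locus, and nothing about shared regulation is read from them. Each window is taken from RefSeq, runs from 250 bases before to 50 bases after the start, and is read 5′ to 3′ on the strand of its gene, with the letters GGAA or TTCC (the core of the sites that ETS factors bind, on either strand) in capitals. The windows are chr9:44980382-44980681 on the minus strand, chr9:44981536-44981835 on the plus strand and chr9:45009562-45009861 on the minus strand.
Cd3g: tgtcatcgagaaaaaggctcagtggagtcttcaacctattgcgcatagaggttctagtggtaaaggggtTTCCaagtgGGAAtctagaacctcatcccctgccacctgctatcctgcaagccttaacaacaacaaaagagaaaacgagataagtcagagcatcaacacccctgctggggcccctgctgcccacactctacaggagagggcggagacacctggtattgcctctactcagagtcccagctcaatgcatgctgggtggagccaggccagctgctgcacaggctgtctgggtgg
Cd3d: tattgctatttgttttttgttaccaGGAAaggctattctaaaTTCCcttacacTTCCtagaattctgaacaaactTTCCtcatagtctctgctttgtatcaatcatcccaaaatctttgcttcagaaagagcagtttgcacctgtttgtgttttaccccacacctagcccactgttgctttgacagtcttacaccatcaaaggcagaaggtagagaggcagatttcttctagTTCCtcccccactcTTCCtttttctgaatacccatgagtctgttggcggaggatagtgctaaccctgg
Cd3e: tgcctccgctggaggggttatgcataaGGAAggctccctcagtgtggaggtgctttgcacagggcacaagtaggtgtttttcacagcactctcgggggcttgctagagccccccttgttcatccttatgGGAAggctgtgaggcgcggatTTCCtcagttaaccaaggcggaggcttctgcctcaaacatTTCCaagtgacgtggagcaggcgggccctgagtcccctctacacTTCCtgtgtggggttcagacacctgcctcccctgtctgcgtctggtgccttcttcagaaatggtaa

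The ETS core stood 2 times in the Cd3g window, 6 times in that of Cd3d and 5 times in that of Cd3e. It also stood in 96% of 32851 promoter windows of the same length, with a median of 3, so the counts describe the letters and nothing more. The motif CACGTG, the palindromic E-box that BMAL1 with CLOCK binds, stood in 0 of the windows of Cd3g, Cd3d, Cd3e, Cd247 and Nkg7, against 7.15% of all windows. At so low a share a count of 0 in these few windows is likely, so nothing is read from it. The Cd247 window lies inside its gene span, and no window was available for Cd7, Cd2 and Thy1.

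Of the other members, Cd247 lies at chr1:165779952-165871153, Cd7 at chr11:121036747-121039478, Cd2 at chr3:101275908-101287939 and Nkg7 at chr7:43437138-43438246. Thy1 lies at chr9:44043384-44048579, on the chromosome of the CD3 chains. All values below are log2 intensities after RMA, so a difference of 1 is a doubling, and a level is compared only within a probe set and within a set of 6 arrays, since the bulge and epidermis values appear to have been normalized apart. Differences are clock-positive minus clock-negative or KO minus WT, and the value after ± is the standard error from limma unless it is marked as an SD.

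The labels were checked with clock genes. The single Arntl probe set (Arntl is the symbol of Bmal1) read 9.55 to 9.85 in KO epidermis and 9.27 to 9.47 in WT epidermis, a difference of 0.30 ± 0.11 (limma, adjusted p = 0.593). The exons deleted in the knockout are not given in the sources used here, so this probe set checks nothing about the deletion. Nr1d1, a direct target of BMAL1, was at 8.63, 8.39 and 8.44 in KO and at 12.28, 12.52 and 12.60 in WT (difference −3.98 ± 0.12, limma adjusted p = 3.16e-05), which separates the groups as labelled. Dbp and Per1 did not pass in epidermis, at −1.83 ± 0.30 and −0.51 ± 0.34 (limma, adjusted p = 0.119 and 0.892). In bulge cells Per1, the reporter's gene, rose by 0.51 ± 0.07 with bright Venus (limma, adjusted p = 0.00033) and Dbp by 0.28 ± 0.07 (limma, adjusted p = 0.00631), while Nr1d1 and Arntl did not pass, at 0.08 ± 0.06 and 0.16 ± 0.07 (limma, adjusted p = 0.315 and 0.055).

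In bulge cells, all 7 T cell members were lower in clock-positive than in clock-negative cells, by 0.41 to 1.69 on the log2 scale, and no clock-positive array reached any clock-negative array. Groups that do not overlap in this direction were found for 30.5% of all 19937 genes, and 27.9% of genes were lower past an adjusted p of 0.05. The comparison had chosen these genes, so nothing is read from the counts. The median difference of the 7 members was −1.18, and that of all genes was 0.0067.

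Among the chains of the receptor complex, Cd3g read 7.43, 7.60 and 7.48 in clock-positive cells and 9.42, 9.04 and 9.11 in clock-negative cells. This difference, −1.69 ± 0.10, or 3.23-fold lower in clock-positive cells, was the largest of the 8 measured members in bulge cells. Cd3d read 6.50, 6.32 and 6.38 in clock-positive cells, against 7.56, 7.48 and 7.64 in clock-negative cells, a difference of −1.16 ± 0.07. Cd3e, the chain needed to bring the complex to the surface, read 7.68, 7.63 and 7.68 in clock-positive cells, against 8.84, 8.81 and 8.88 in clock-negative cells, a difference of −1.18 ± 0.06. The arrays of a group lay within 0.38 of each other for each of these chains, well under the gap between the groups. Cd247, the zeta chain, which T cells share with natural killer cells, was lower by less, with 6.91, 6.97 and 6.87 in clock-positive cells and 7.28, 7.41 and 7.38 in clock-negative cells (−0.44 ± 0.07).

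The surface molecules differed among themselves in the same way. Cd7, an immunoglobulin-family receptor of T and natural killer cells, read 8.002, 7.87 and 8.002 in clock-positive cells and 9.71, 9.42 and 9.44 in clock-negative cells, a difference of −1.56 ± 0.09, or 2.96-fold. Cd2, the adhesion receptor that binds CD48 in mice, read 6.25, 6.15 and 6.26 in clock-positive cells and 6.62, 6.63 and 6.65 in clock-negative cells, a difference of −0.41 ± 0.06. Nkg7, a granule membrane protein of cytotoxic lymphocytes, read 6.80, 6.90 and 7.12 in clock-positive cells and 8.47, 8.44 and 8.63 in clock-negative cells, a difference of −1.58 ± 0.09. The linear intensities of the 7 members summed to 1033, 1021 and 1056 on the clock-positive arrays, against 2777, 2452 and 2579 on the clock-negative arrays. The clock-positive sums lay within a narrow range, and the lowest clock-negative sum was far above them.

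Thy1, the small GPI-anchored glycoprotein long used as the pan-T cell surface marker of the mouse and also present on fibroblasts and neurons, was the member not chosen by this comparison. It read 8.79, 8.84 and 8.95 in clock-positive cells, against 9.24, 9.18 and 9.06 in clock-negative cells. Thy1 thus fell by 0.31 ± 0.07 in clock-positive cells (limma, adjusted p = 0.00612, lower on 3 of 3 arrays), past the threshold as 27.9% of all genes were in this direction. The call held in all 14 alternatives run, with differences from −0.57 to −0.26.

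**Figure D1:**
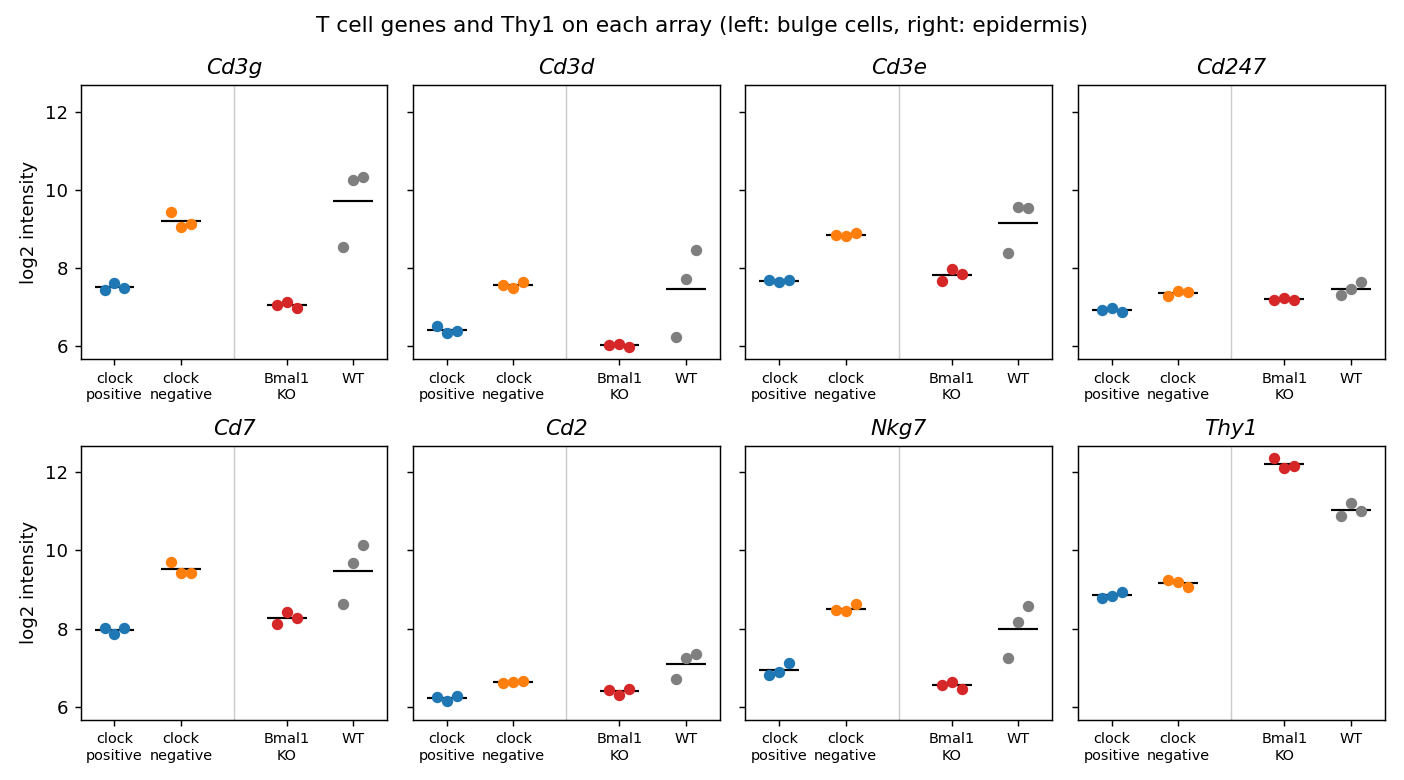
Log2 intensity of the 8 measured members on each of the 12 arrays, with clock-positive beside clock-negative bulge cells to the left of the grey line and Bmal1 KO beside WT epidermis to the right. Points are arrays and bars are means of 3 arrays; levels are comparable within each side of the line. The 7 T cell members are lower in clock-positive and in KO arrays, WT arrays spread widely, and Thy1 alone is higher in KO.

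The bulge comparison carried a trend with level that bears on the weaker members. Of the 30% of genes with the lowest means 51.7% were lower in clock-positive cells, against 44.9% of the next band, up to the median level, and 6.84% of genes above the median. The median differences of these bands were −0.213, −0.178 and 0.213. Cd3d, Cd247 and Cd2 lay in the band between 30% and 50%, where the fifth percentile of all differences was −0.554, and Cd3g, Cd3e, Cd7, Nkg7 and Thy1 lay in the upper 50%, where it was −0.274. After quantile normalization or cyclic loess the band medians lay between −0.0372 and 0.00838. The Cd2 difference was then −0.22 in either, and that of Cd247 stayed between −0.47 and −0.41 in all 14 alternatives. Cd3g moved the other way, to −1.86 with quantile normalization and −1.93 with cyclic loess.

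**Figure D2:**
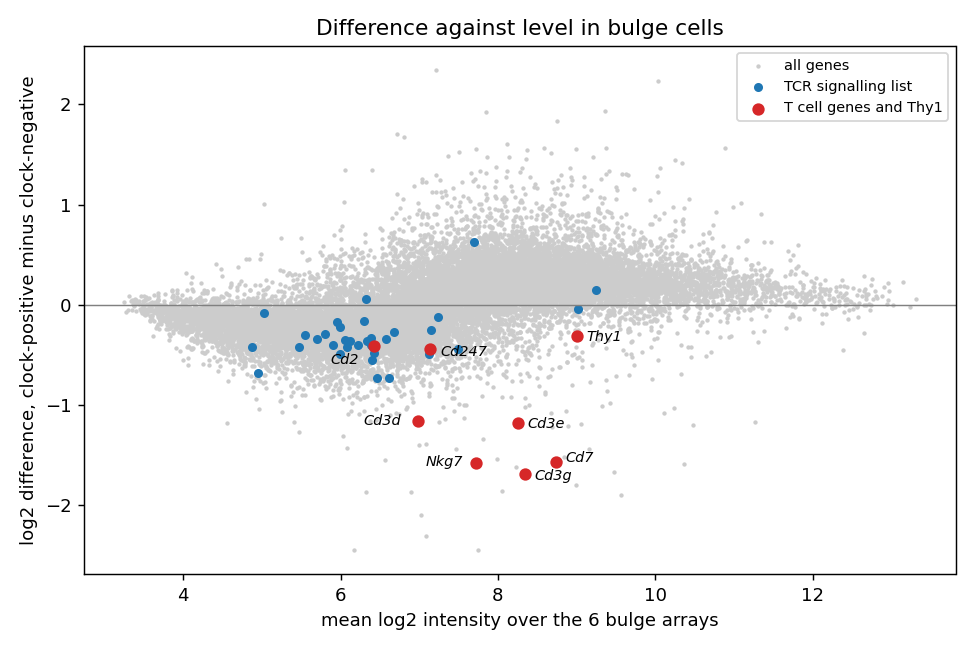
Log2 difference, clock-positive minus clock-negative, against the mean log2 intensity over the 6 bulge arrays. Grey points are all genes, blue points the genes of T cell receptor signalling and red points the members. Grey points of low level lie mostly below 0 and those of high level above 0; Cd3g, Cd7, Nkg7, Cd3e and Cd3d lie below the cloud at their level.

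Genes that act below the receptor were lower too in clock-positive bulge cells, in smaller number once the trend with level was taken out. Of 33 genes of T cell receptor signalling, 25 fell, 1 rose and 7 did not pass, with a median of −0.35. As deposited 27.9% of all genes fell. Among the 30% of genes with the lowest means, where part of this list lay, 51.7% fell, with a median of −0.213. After quantile normalization 12 fell, with 14.9% of all genes falling, and after cyclic loess 12 fell, with 15.6%. Ptprc, the CD45 phosphatase that primes the receptor kinases, fell by 0.73 ± 0.07 (limma, adjusted p = 4.25e-05), with means of 6.10 in clock-positive and 6.83 in clock-negative cells. The adaptor Lat fell by 0.73 ± 0.08, its partner Lcp2, which encodes SLP-76, by 0.55 ± 0.07, and the adaptor Sh2d2a by 0.48 ± 0.06, all with limma adjusted p of 0.000245 or less. These 4 falls held in all 14 alternatives. Fyn, a Src-family kinase that many cell types hold, was the gene that rose, by 0.63 ± 0.10 (limma, adjusted p = 0.000853), as did 31.5% of all genes. Cd4, the co-receptor of helper T cells, fell by 0.29 ± 0.07, and Cd8a, that of cytotoxic T cells, by 0.27 ± 0.08 (limma, adjusted p = 0.00597 and 0.0139), and neither passed after quantile normalization or cyclic loess.

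Counts for the other lists are read against the same shares of all genes, 27.9% lower and 31.5% higher as deposited, 14.9% lower and 15.3% higher after quantile normalization, and 15.6% lower after cyclic loess. In any list, the genes counted after these scalings were not always among those counted as deposited. Of 20 receptors and adhesion molecules of the epidermal T cell surface 14 fell and 2 rose as deposited, and 10 fell and 2 rose after quantile normalization or cyclic loess. Fcer1g, the adaptor chain of several activating receptors, fell by 0.80 ± 0.07, Itgae, the CD103 integrin that holds T cells to E-cadherin, by 0.78 ± 0.07, and the chemokine receptor Cxcr6 by 0.52 ± 0.07. S1pr1, a sphingosine-1-phosphate receptor that lymphocytes and endothelium share, rose by 0.54 ± 0.07, and Ccr4, a chemokine receptor of skin-homing T cells, by 0.32 ± 0.07, though Ccr4 did not pass after quantile normalization or cyclic loess. Of 9 antigen receptor gene segments with a symbol of their own 7 fell, and Trdv2-2 and Trav12-2 did not pass, but 3 of 9 fell after quantile normalization or cyclic loess. Trbv1 fell by 0.83 ± 0.11 and Trgv1 by 0.77 ± 0.07, and both kept the call in every alternative in which they were fitted. Variable segments are similar in sequence, so a probe set may also read its relatives.

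Of 21 effector and cytokine genes 19 fell as deposited, and 5 fell and 1 rose after quantile normalization or cyclic loess, nearer to the share of all genes. Ctsw, a cathepsin of cytotoxic lymphocytes, fell by 1.06 ± 0.06, with means of 6.92 in clock-positive and 7.97 in clock-negative cells. The chemokine gene Xcl1 fell by 0.99 ± 0.09, the lectin-like receptor Klrd1 by 0.77 ± 0.10 and Cst7, an inhibitor of cathepsins, by 0.56 ± 0.08. Of 12 lymphocyte cytokine receptors 10 fell as deposited, led by Il2rb, the chain shared by the interleukin 2 and interleukin 15 receptors, at −0.53 ± 0.08, and Il12rb1 at −0.50 ± 0.07. After quantile normalization or cyclic loess 5 fell, not all of them among the 10. Of 14 transcription factors 8 fell and 2 rose as deposited, and 4 fell and 1 rose after quantile normalization or cyclic loess, with Ikzf1 at −0.48 ± 0.07 and Runx3 at −0.49 ± 0.09 among those that fell and Maf at 0.45 ± 0.07 and Zbtb16 at 0.33 ± 0.06 the ones that rose. Zbtb16 did not pass after quantile normalization or cyclic loess.

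Markers of other cells moved in the same arrays. Of 17 genes common to leukocytes 14 fell in clock-positive cells, against 9 after quantile normalization and 10 after cyclic loess, and Srgn, which did not pass after quantile normalization or cyclic loess, rose, with Cd53 at −0.65 ± 0.07, Cd52 at −0.66 ± 0.09, the DAP12 adaptor Tyrobp at −0.57 ± 0.07 and Rac2 at −0.42 ± 0.07. Of 6 Langerhans cell markers 5 fell, among them H2-Ab1 at −0.74 ± 0.07, H2-Eb1 at −0.71 ± 0.07 and Cd207, which encodes langerin, at −0.59 ± 0.07, while Mfge8 rose by 1.15 ± 0.08. The summed linear intensity of the Langerhans list was 2929 to 3042 in clock-positive and 3316 to 3698 in clock-negative cells. Of 5 suprabasal keratinocyte markers 3 fell, with Hrnr at −1.20 ± 0.06 and Lor at −1.17 ± 0.06, and the sum of the list was 15280 to 15710 in clock-positive against 19020 to 19630 in clock-negative cells. All 8 bulge markers rose, from 0.20 ± 0.06 for Krt15 to 1.45 ± 0.07 for Cd34, a surface protein of the sort gate itself, and 7 of 8 passed after quantile normalization, where 15.3% of all genes rose. RMA gives no value of 0, so no marker was at 0.

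The remaining marker lists split. Of 6 natural killer cell markers 5 fell, from 0.17 for Eomes to 0.35 for Klrb1a on the log2 scale, and 1 did after quantile normalization or cyclic loess. Calls that fell also stood in the mast cell (4 of 6), melanocyte (3 of 5), Merkel cell (3 of 5), macrophage (3 of 8), B cell (2 of 4), group 2 innate lymphoid cell (2 of 4) and Schwann cell (1 of 3) lists, and Alas2, the marker of red blood cells that was measured, fell by 1.62 ± 0.08. Cd68 of the macrophage list rose by 0.23, and Il17rb of the group 2 innate lymphoid cell list rose by 0.48. After quantile normalization, where 14.9% of all genes fell, the counts that fell were 1 in the mast cell, 2 in the melanocyte, 1 in the Merkel cell and 1 in the Schwann cell list (Mbp, in place of Sox10 as deposited), while Alas2 was at −1.79. The macrophage, B cell and group 2 innate lymphoid cell markers that fell as deposited did not pass then. Il17rb still rose then, and so did 1 macrophage marker other than Cd68, where 15.3% of all genes rose. In the endothelial list 5 of 6 rose as deposited and 4 after quantile normalization. In the fibroblast list 2 of 8 fell and 2 rose, close to the shares of all genes, and 1 fell and 1 rose after quantile normalization. The part that other cells in the sort have in the T cell values was not tested.

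In epidermis, the 7 T cell members were lower in KO than in WT, with every KO array below every WT array for each gene, but 0 of 7 passed an adjusted p of 0.05 in limma. At an unadjusted p under 0.05 all 7 were lower, as were 4.65% of the 19938 genes tested. Groups that do not overlap in this direction were found for 7.33% of genes. Adjusted calls were rare in this comparison, at 0.0552% of genes lower and 0.0251% higher. The median difference of the 7 members was −1.33, and that of all genes was 0.0029.

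The receptor chains were low and even among KO arrays and spread widely among WT arrays. Cd3g read 7.06, 7.12 and 6.96 in KO epidermis and 8.53, 10.25 and 10.32 in WT epidermis (−2.66 ± 0.44, limma adjusted p = 0.123). Cd3d read 6.02, 6.04 and 5.98 in KO, against 6.23, 7.71 and 8.46 in WT (−1.45 ± 0.48, limma adjusted p = 0.507). The first WT array was only just above the KO arrays for Cd3d, and the other two were far above. Cd3e read 7.66, 7.97 and 7.84 in KO, against 8.38, 9.55 and 9.53 in WT (−1.33 ± 0.30, limma adjusted p = 0.279). Cd247 read 7.17, 7.24 and 7.17 in KO, against 7.29, 7.45 and 7.63 in WT (−0.26 ± 0.11, limma adjusted p = 0.662). Cd247 again showed the smallest difference among the chains.

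Cd7 read 8.11, 8.42 and 8.26 in KO epidermis and 8.63, 9.68 and 10.14 in WT epidermis (−1.22 ± 0.34, limma adjusted p = 0.404). Cd2 read 6.43, 6.30 and 6.45 in KO, against 6.70, 7.25 and 7.34 in WT (−0.70 ± 0.17, limma adjusted p = 0.338). Nkg7 read 6.56, 6.64 and 6.46 in KO, against 7.26, 8.16 and 8.58 in WT (−1.45 ± 0.30, limma adjusted p = 0.228). In all 3 the first WT array stood between the KO arrays and the other WT arrays.

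The same WT array was the lowest of its group for 7 of 7 T cell members, and the third WT array was the highest for 6 of 7. The SD of a member over 3 arrays ran from 0.0305 to 0.154 in KO and from 0.166 to 1.13 in WT. Without the first WT array, 6 of 7 members fell past an adjusted p of 0.05 in limma, all but Cd247, where 0.256% of all genes fell and 64 genes were called in either direction, and the median difference of the 7 members was −1.72. With all 12 arrays in 1 fit, which shares the spread of the bulge arrays, 5 of 7 fell (Cd3g, Cd3e, Cd7, Cd2 and Nkg7), where 1.1% of all genes fell. In each of the other alternatives 0 members passed, with 5 to 7 members lower at an unadjusted p under 0.05 (5 of the 5 that the filter on low genes keeps), and the sign of each member held in all.

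The summed linear intensity of the 7 T cell members was 1001, 1126 and 1043 in KO epidermis, against 1588, 3616 and 4236 in WT epidermis. The first WT array was nearer to the KO arrays than to the other WT arrays. Langerhans cell markers showed the same array apart, with sums of 1589, 1514 and 1124 in KO and 1322, 3704 and 5524 in WT. Of these 6 markers 6 were lower in KO in the mean and 0 passed (limma, 5 lower at an unadjusted p under 0.05), with H2-Ab1 at −1.79 ± 0.60 (limma, adjusted p = 0.51), and without the first WT array 3 fell. Suprabasal keratinocyte markers summed to 21270 to 21530 in KO and to 23240 to 24320 in WT, and basal keratinocyte markers to 46950 to 47640 in KO and to 47170 to 48330 in WT. The mean log2 level of the suprabasal list was 10.20 to 10.41 in KO and 10.30, 10.92 and 11.05 in WT. By this measure the first WT array lay within the KO range. Whether a different content of immune cells or of suprabasal keratinocytes in the first WT sample bears on the T cell values was not tested.

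**Figure D3:**
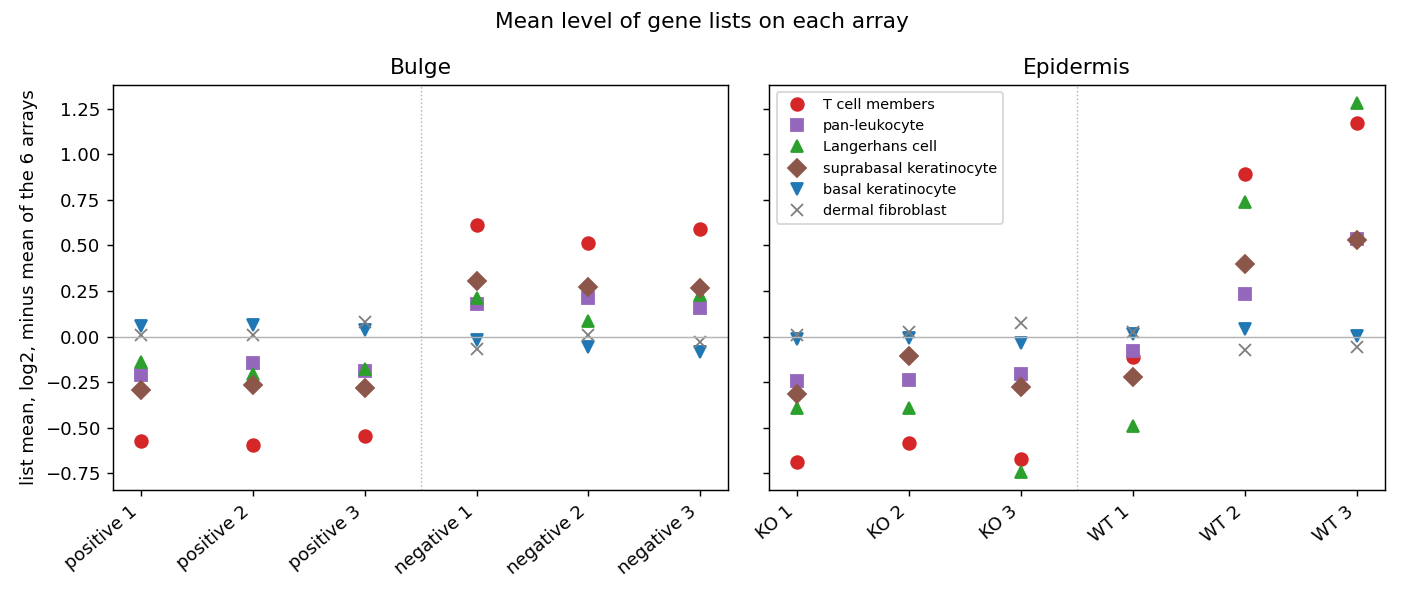
Mean log2 intensity of 6 gene lists on each array, minus the mean of that list over the 6 arrays of its set, for bulge cells (left panel, clock-positive before clock-negative) and epidermis (right panel, KO before WT). Points are arrays. The T cell members separate the bulge groups with narrow spread, and in epidermis the first WT array lies nearer to the KO arrays than to the other WT arrays for T cell, Langerhans cell and suprabasal genes, while basal keratinocyte genes stay near 0.

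Thy1 went against the other members in epidermis. It read 12.37, 12.12 and 12.17 in KO and 10.88, 11.20 and 11.00 in WT, a difference of 1.19 ± 0.12, or 2.28-fold higher in KO, with no test since this comparison chose it. Groups that do not overlap in this direction were found for 4.33% of genes. The SD of Thy1 was 0.130 in KO and 0.165 in WT, where it was close to that of Cd247, at 0.166, and below those of the other T cell members. Its difference lay between 1.11 and 1.28 in the 14 alternatives. Dermal fibroblast markers, which Thy1 can accompany, summed to 1256 to 1359 in KO and to 1228 to 1293 in WT, and 0 of 8 passed (limma, 1 higher at an unadjusted p under 0.05).

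**Figure D4:**
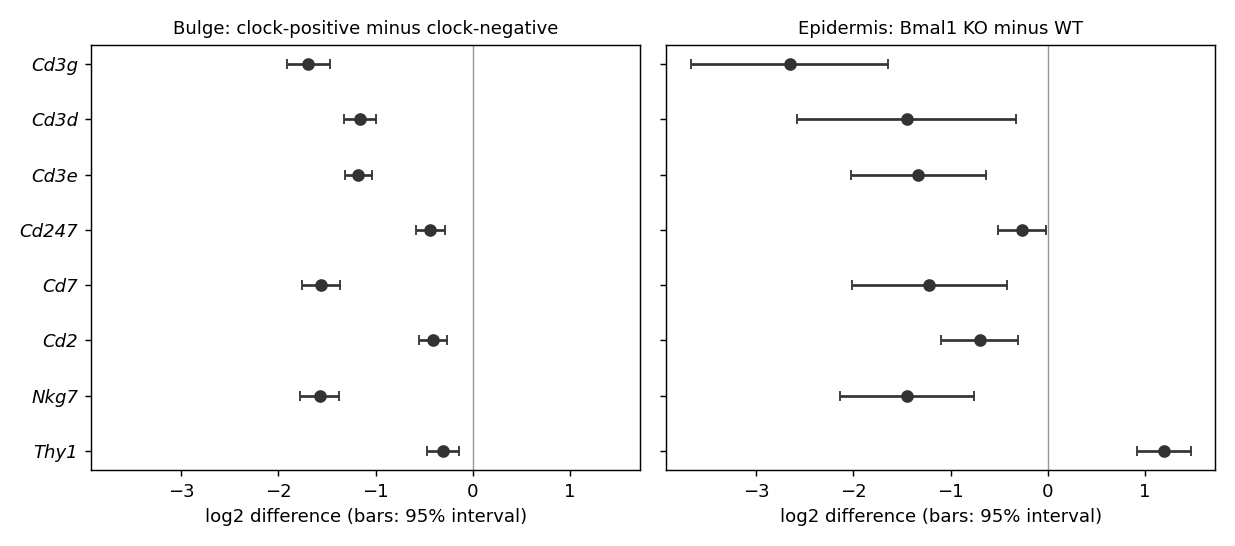
Log2 difference of each measured member with its 95% interval from limma, clock-positive minus clock-negative in bulge cells (left) and KO minus WT in epidermis (right). Points left of the line at 0 are lower in clock-positive or in KO. Intervals of the T cell members are wider in epidermis, where Cd3g is at −2.66 and Thy1, at 1.19, is the only member to the right of 0.

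No gene of the wider lymphocyte lists was called lower in epidermis. Unadjusted falls were above the share of all genes in each of these lists. Outside the surface and effector lists they rested on 1 to 3 genes per list. In T cell receptor signalling 0 of 33 genes passed (limma, 3 lower and 0 higher at an unadjusted p under 0.05, which 4.65% and 2.34% of all genes reached), with a median of −0.07, and 2 fell without the first WT array. Ptprc was at −0.98 ± 0.22 and Cd27, a co-stimulatory receptor, at −0.39 ± 0.09 (limma, adjusted p = 0.272 and 0.312). Of the 20 surface genes 0 passed (6 lower at an unadjusted p under 0.05), with Cxcr6 at −0.57 ± 0.10 and Cd96, a nectin-family receptor, at −0.83 ± 0.20. Of 21 effector and cytokine genes 0 passed (5 lower and 1 higher at an unadjusted p under 0.05), with Ctsw at −1.19 ± 0.28 and Xcl1 at −1.02 ± 0.21. Of 14 transcription factors 0 passed (2 lower at an unadjusted p under 0.05), with Irf4, a factor of activated lymphocytes and dendritic cells, at −1.41 ± 0.24 (limma, adjusted p = 0.155). Of 9 antigen receptor segments 0 passed (1 lower and 2 higher at an unadjusted p under 0.05), with Trgv1 at −0.84 ± 0.26. Ptprc, Ctsw, Xcl1 and Irf4 each passed in 2 of 14 alternatives, Cxcr6 and Cd96 each in 1, and Cd27 and Trgv1 in 0.

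Genes common to leukocytes were lower in KO in the mean for 17 of 17, with a median of −0.35, and 0 passed (limma, 9 lower at an unadjusted p under 0.05). Cd52, a GPI-anchored glycoprotein of lymphocytes, was at −0.88 ± 0.13 (limma, adjusted p = 0.0903) and Lcp1, the actin bundler L-plastin, at −1.41 ± 0.44 (limma, adjusted p = 0.47). Cd52 passed in 5 of 14 alternatives, among them quantile normalization and cyclic loess (limma, adjusted p = 0.0164 and 0.00876), and Lcp1 in 1. Without the first WT array 3 of the 17 fell. Markers of B cells (0 of 4), natural killer cells (0 of 6), mast cells (0 of 6) and endothelium (0 of 6) did not pass, with medians of 0.0028, 0.06, 0.05 and 0.02. At an unadjusted p under 0.05, limma gave 1 natural killer marker higher and 0 in the other lists of that sentence. Of 8 macrophage markers 0 passed (limma, 3 lower at an unadjusted p under 0.05), with a median of −0.12, Csf1r at −0.75 ± 0.29 and Lyz2 at −0.50 ± 0.15. Alas2 was at −1.20 ± 0.21 (limma, adjusted p = 0.155), with every KO array below every WT array.

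A receptor of lymphocyte cytokines and a keratinocyte gene passed the test in epidermis. Il18r1, a chain of the interleukin 18 receptor that lymphocytes and other cells carry, rose by 1.93 ± 0.15 (limma, adjusted p = 0.00532), with means of 10.08 in KO and 8.15 in WT, 1 of 12 in its list. It kept the call in 11 of 14 alternatives, with adjusted p up to 0.134, and did not pass without the second WT array or without the second KO array. Skint10, of the keratinocyte SKINT family, fell by 1.05 ± 0.12 (limma, adjusted p = 0.0455), with 7.61, 7.71 and 7.36 in KO and 8.48, 8.61 and 8.73 in WT. It kept the call in 8 of 14 alternatives, with adjusted p up to 0.532, and did not pass when any array but the first WT array was left out. Of the 7 measured SKINT genes all were lower in KO in the mean, with a median of −0.78 and 5 lower at an unadjusted p under 0.05, and Skint7 was at −0.85 ± 0.13 (limma, adjusted p = 0.118). Skint1 was not among the measured SKINT genes. SKINT genes are close relatives, so their probe sets may share signal.

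In bulge cells the SKINT genes did not all move one way. As deposited Skint7 fell and Skint4 rose. The other measured SKINT genes lay between 0.02 for Skint11 and 0.15 for Skint10 and did not pass. The counts and medians that follow are for the whole list of keratinocyte partners. Of 16 keratinocyte partner genes 2 fell and 3 rose as deposited, and 1 fell and 5 rose after quantile normalization or cyclic loess, with Skint7 at −0.55 ± 0.07 and Skint4 at 0.49 ± 0.08, and Il15, the cytokine that sustains epidermal T cells, at 0.33 ± 0.11 (limma, adjusted p = 0.0292). The median of this list was 0.12 as deposited and −0.06 after quantile normalization, so the list as a whole has no settled direction. Il15 passed in 9 of 14 alternatives.

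**Figure D5:**
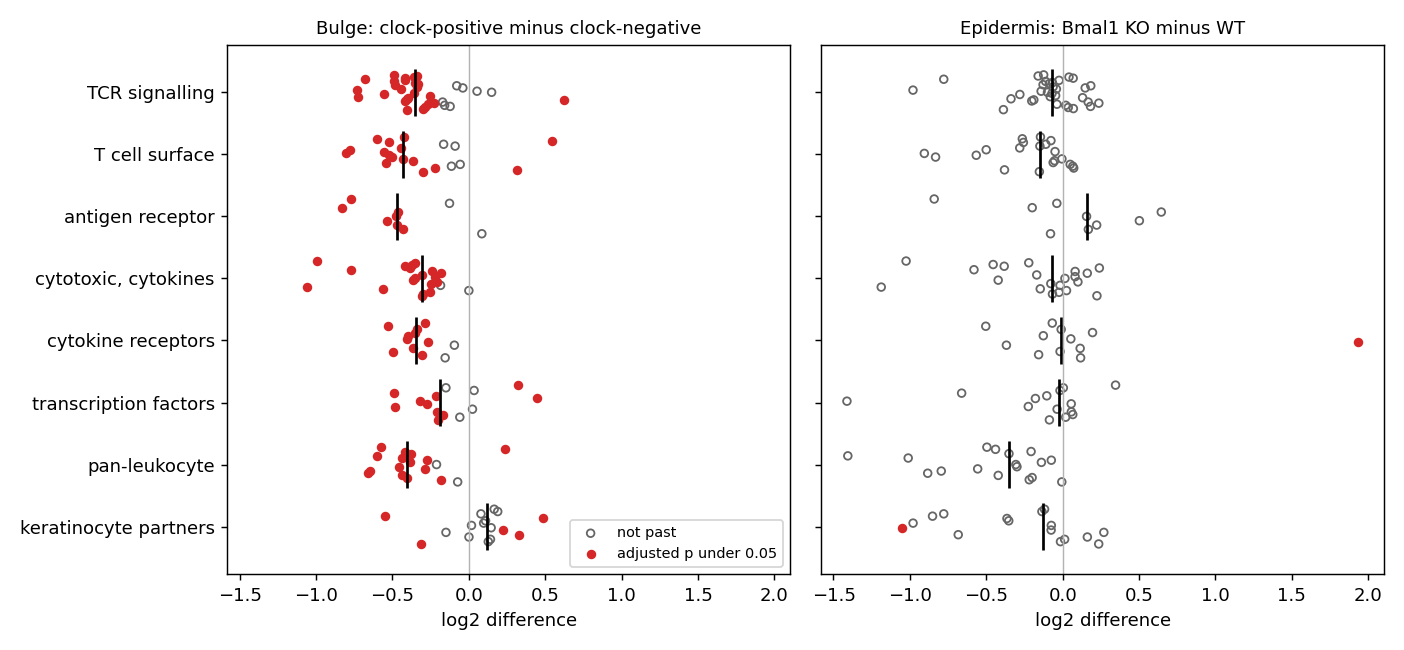
Log2 difference of each gene in 8 lists linked to lymphocytes, clock-positive minus clock-negative in bulge cells (left) and KO minus WT in epidermis (right). Filled points pass an adjusted p of 0.05 in limma, open points do not, and black bars are list medians; members are left out of the lists. Most filled points in bulge cells lie left of 0, and in epidermis Il18r1 at 1.93 and Skint10 at −1.05 are the filled points.

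The members also varied among themselves over the 12 arrays. After each set was centred on its own mean, Cd3e stood 0.0856 from the mean of the 4 receptor chains as a root mean square difference on the log2 scale, Cd3d 0.183, Nkg7 0.191 and Cd7 0.196. Cd2 stood 0.395, Cd3g 0.502, Cd247 0.534 and Thy1 1.01 from it, and the chain mean itself had a root mean square of 0.707. Cd3g differed by more between groups than the chain mean, Cd247 and Cd2 differed by less, and Thy1 turned the other way in epidermis.

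Of 18604 genes searched, the 5 closest to the chain mean by this measure were Ctsw at 0.159, Cdsn at 0.183, Kprp at 0.214, Flg2 at 0.224 and Xcl1 at 0.231. Ctsw and Xcl1 are lymphocyte genes, and Cdsn (corneodesmosin), Kprp and Flg2 (filaggrin 2) are products of the outermost keratinocytes. Flg2 differed by −1.55 in bulge cells and by −1.38 in epidermis, where it read 6.11, 6.28 and 6.33 in KO and 6.61, 7.70 and 8.54 in WT, with the first WT array again the lowest of its group. The genes closest to Thy1 were Serpina4-ps1 at 0.112, H2bc14 at 0.161, Tmem269 at 0.178, Fam234b at 0.186 and Cth at 0.197. Each of these 5 was higher in KO in the mean, by 0.75 to 1.09, with no overlap between KO and WT arrays, as 4.33% of all genes were. They were picked for their likeness to Thy1, which was itself chosen by this comparison, so nothing is read from their direction. All 12 arrays enter this likeness, including those that chose the members, so it is a description.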

How the data were processed

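The deposited values are log2 intensities, and the submitters' processing notes name RMA as the authors' tool. The RNA had been passed through a whole transcriptome amplification kit, per the labels' protocols. The version of RMA is not given in the sources used here. RMA corrects, normalizes and summarises probes, so low genes are compressed. The bulge columns are filled for 34760 of 35512 probe sets and the epidermis columns for 28853, so each set of 6 arrays was fitted alone. Probe sets were named from the platform annotation: 21789 carry 1 symbol, 1621 several and 12102 none listed. For 999 symbols with more than 1 probe set, the set measured on all 12 arrays was preferred, then the highest mean. No filter on dim genes was applied. Differences were tested with limma 3.58.1 (lmFit and eBayes, R 4.3.3; the step was tested on simulated data), two-sided, with Benjamini-Hochberg adjustment over all genes and a threshold of 0.05. Arrays have no read depth, and 3 per group limit the precision. Replicates are separate pools of mice by the design text.

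The members, the 8 gene lists and the 15 marker lists were chosen with earlier results of these data known. Genes named are the members, up to 4 genes of each list with the smallest p, and the 5 closest to the chain mean and to Thy1; Fyn, Ccr4, Cd4, Cd8a, Srgn, Trav12-2, Trdv2-2, Eomes, Krt15 and the clock genes of the label check were added after their values were seen. Alternatives were another scaling (median, quantile, cyclic loess), a filter on the lowest 30% of genes, an intensity trend, all arrays in 1 fit, the replicate block, the mean of probe sets and leaving out each array.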

Additional observations from a re-analysis of the deposited data

How the results depend on the processing

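The number of genes called in bulge cells was 11849, and moved past 1.5 times under 3 of 14 alternatives, to 6014 with quantile normalization, 6332 with cyclic loess and 7201 with all 12 arrays in 1 fit. Leaving out 1 array gave 9126 to 12960. In epidermis it was 16, and was 27 without the lowest 30% of genes, 41 with median centring, 69 with quantile normalization, 77 with cyclic loess, 31 with an intensity trend and 347 with all 12 arrays in 1 fit. Leaving out 1 array gave 6 to 64, with 64 without the first WT array, 6 without the second WT array or the second KO array, 8 without the third WT array and 9 without the third KO array. The cause of these moves was not tested. Each member kept its sign in every alternative in which it was fitted; Cd3d and Cd2 were below the filter in epidermis.

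With the replicate number as a block, 12479 genes were called in bulge cells and 2 in epidermis, and Il18r1, Skint10 and the T cell members did not pass in epidermis. Deviations from group means of same-numbered arrays correlated at 0.198, 0.206 and −0.0519 in bulge cells and at −0.557, −0.032 and −0.561 in epidermis. For arrays of differing number the highest correlations were 0.0891, −0.0431 and 0.0781 in bulge cells and 0.513, 0.0455 and 0.609 in epidermis. With 3 arrays per group, these values cannot decide whether the numbers pair the samples. With 3 arrays per group, the spread of the WT epidermis arrays limits what the epidermis comparison can call.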
